A study of Homo sapiens with 6 samples.

Results

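Potassium channel genes were taken as the protein-coding genes whose symbol begins with KCN followed by a family letter. Among the 63140 gene IDs of the count table, 123 symbols fitted this pattern, 26 of them were not protein coding, and the remaining 97 genes form the set. By the family letter, 40 of them encode voltage-gated channels or the modifier subunits that assemble with them, 16 inward rectifiers, 15 two-pore channels and 8 calcium-activated channels and their sodium-activated relatives. The other 18 encode auxiliary subunits and regulators, which form no pore. RNA was sequenced from Y79, an established human retinoblastoma line grown in RPMI medium with fetal bovine serum and antibiotics. Its genotype is wild type only in the sense that the sample titles name no knockdown or other change to this tumour line. One group of 3 libraries came from cells in complete medium (controls), and the other group of 3 libraries from cells kept for 72 h with 2 U/mL of recombinant human arginase (rhArg), which depletes the medium of arginine by breaking it down. Both groups are a single cell line. The labels leave out whether each library stands for its own culture, and the p-values then cover only library-to-library spread, which may be technical.

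Potassium channels let potassium ions leave or enter a cell along their electrochemical gradient, and they set the resting membrane potential and shape electrical signals. Voltage-gated channels open on depolarization, inward rectifiers pass current more easily into the cell than out of it, two-pore channels carry background current, and calcium-activated channels couple the membrane potential to calcium in the cytosol. In the retina, photoreceptors, bipolar cells, ganglion cells and glia each use a different set of these channels, and KCNV2, a modifier subunit of photoreceptors, is a known gene of inherited cone dystrophy.

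The libraries held between 12580622 and 13747351 counts, so depth was close to equal in both groups. Potassium channel genes took 0.168% ± 0.0147 (SD, n = 3) of the counts of a control library and 0.200% ± 0.00599 (SD, n = 3) of those of an rhArg library. Of the 97 genes, 84 had a count in at least 1 library and 47 passed the filter on low counts, 39 of them in both groups, 2 through the controls alone (KCNK2 and KCNH1) and 6 through the rhArg libraries alone (KCNA4, KCNC2, KCNJ5, KCNJ14, KCNK9 and KCNAB1). All 9 markers of retinoblastoma and photoreceptor precursors were detected, and their summed level was between 8619 and 9906 TPM (a count scaled by exon length and by the library's total of such values) in the controls and between 4009 and 4201 TPM under rhArg, with 1 marker (CRX) higher and 6 lower. Most of this fall was that of MYCN, from 6543 ± 756 to 1684 ± 134 TPM (SD, n = 3), and the other 8 markers summed to between 2761 and 3071 TPM in the controls and between 2393 and 2466 TPM under rhArg. In bulk RNA, fewer cells of a type and less RNA per cell cannot be told apart. The summed level of 5 Mueller glia markers was between 243.6 and 276.7 TPM in the controls and between 239.7 and 247.1 TPM under rhArg, with RLBP1 and AQP4 at 0. GLUL and VIM made up nearly all of this sum, GLUL was called lower, and SLC1A3 was called higher, from 0.218 ± 0.0367 to 3.15 ± 0.435 TPM. Retinal pigment epithelium markers summed to between 1.55 and 2.66 TPM in the controls and between 5.31 and 7.16 TPM under rhArg, with TYR at 0. BEST1, which passed the filter only through the rhArg libraries, alone carried this rise, from 0.103 ± 0.0423 to 4.93 ± 0.517 TPM, and the other 4 of these markers summed to 2.08 ± 0.564 TPM in the controls and 1.47 ± 0.450 TPM under rhArg. Fibroblast, leukocyte and endothelium markers summed to at most 2.69 TPM in any library, and LUM, CD3E, CDH5 and KDR were at 0. The endothelium marker VWF was called higher, with 12 counts in the controls and 41 under rhArg, and passed the filter only through the rhArg libraries. The part of these marker levels in the results below was not tested.

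Potassium channel genes changed in both directions under rhArg. By edgeR's quasi-likelihood test, 24 of the 47 tested genes were higher under rhArg and 12 were lower (adjusted p under 0.05, n = 3 libraries per group), and 11 did not pass. Over all 15221 genes tested, 61.7% passed, 30.7% being higher and 30.9% lower. A gene counted as differentially expressed (DEG) when the absolute log2 fold change was also over 1, and 13 potassium channel genes were higher and 8 were lower by this rule, against 23.4% of all genes in either direction, of which 1881 genes (12.4%) were higher and 1677 lower. Normalized counts of the 2 groups did not overlap for 40 of the 47 genes, against 66.5% of all genes tested, and 29 of the 47 had a positive log2 fold change, against 49.7% of all genes. Among the 39 genes that passed the filter in both groups, 19 were higher and 11 were lower, and 9 were higher and 7 lower by the DEG rule. The median log2 fold change was 0.48 over the 47 genes, 0.40 over these 39 and -0.005 over all genes tested.

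**Figure D1:**
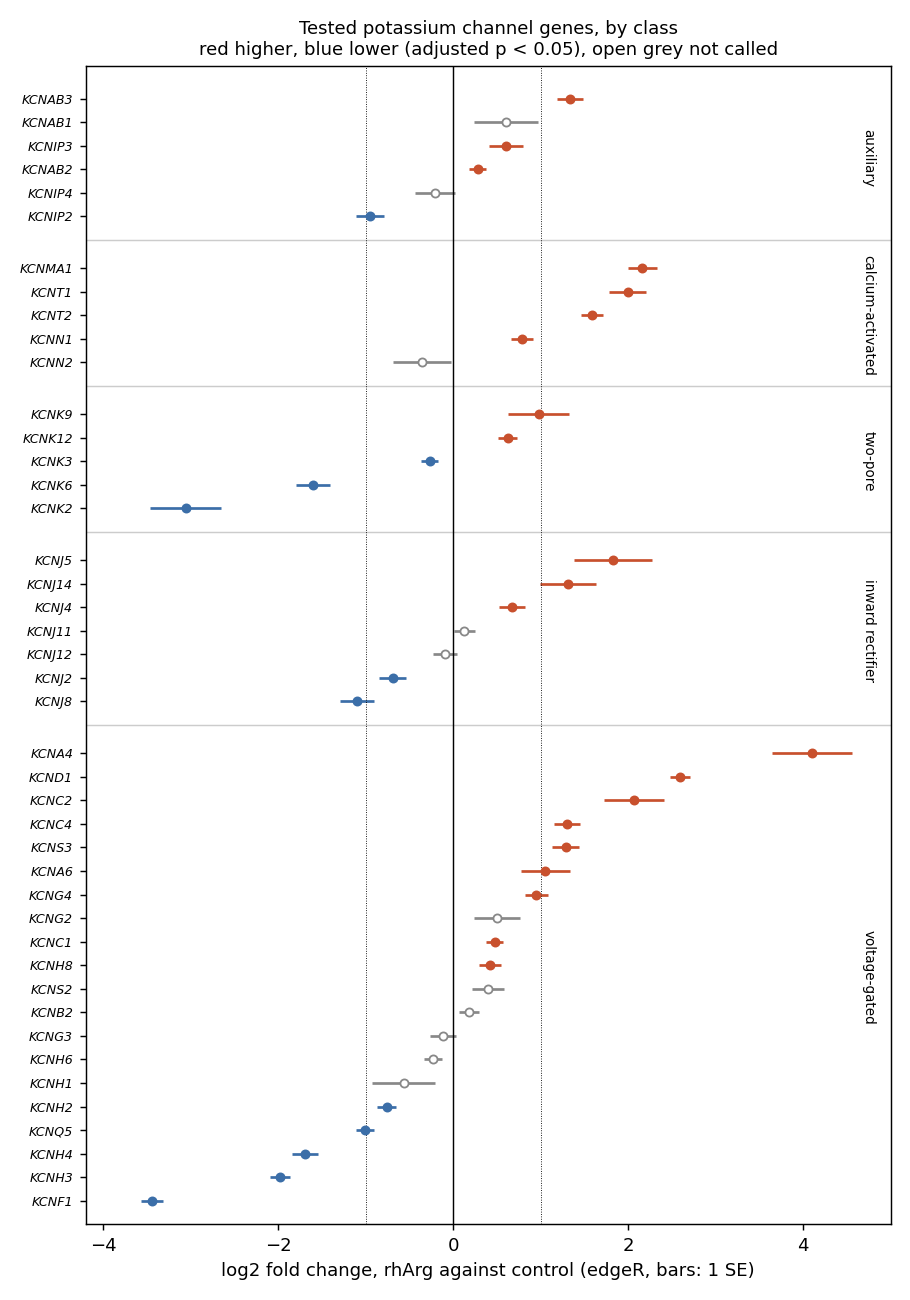
Log2 fold change of 43 tested potassium channel genes under rhArg against control (x axis; bars are 1 standard error, n = 3 libraries per group), grouped by class on the y axis. Filled red points are higher and filled blue points lower at an adjusted p under 0.05, open points did not pass, and dotted lines mark the fold threshold of the DEG rule, with KCNA4 at 4.11 and KCNF1 at -3.44 as the outermost genes.

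Higher and lower calls were counted by class, where 30.7% of all genes tested were higher and 30.9% lower. Of 24 tested voltage-gated genes, 12 were higher and 6 lower, with a median log2 fold change of 0.45. The 7 tested inward rectifier genes gave 3 higher and 2 lower (median 0.13), and the 5 tested two-pore genes gave 2 higher and 3 lower (median -0.27). Among the 5 tested genes of the calcium-activated class, 4 were higher and 0 were lower (median 1.59). Of these 5 genes, 2 are the sodium-activated KCNT1 and KCNT2, both higher, and the median is the value of KCNT2. The 6 tested auxiliary genes gave 3 higher and 1 lower (median 0.44). These are counts over few genes, and the difference between classes was not tested.

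Every class tally but the calcium-activated one includes genes that entered the test through 1 group. Among genes that passed the filter in both groups, the inward rectifiers gave 1 higher and 2 lower of 5 (median -0.09), the two-pore genes 1 higher and 2 lower of 3 (median -0.27), the voltage-gated genes 10 higher and 6 lower of 21 (median 0.42) and the auxiliary genes 3 higher and 1 lower of 5 (median 0.28). The 5 calcium-activated genes all passed it in both. The two-pore median turned to 0.53 when no filter on low counts was used, to 0.57 with DESeq2 over all genes, and to 0.22 and 0.15 without control replicate 2 and control replicate 3. The inward rectifier median rose to 0.83 when the filter was dropped and to 0.92 in the DESeq2 fit of all genes, and the auxiliary median was 0.28 with the stricter filter and 0.69 without control replicate 3.

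Voltage-gated genes held most of the potassium channel RNA in both groups. Their summed level was 985 ± 104 TPM (SD, n = 3) in the controls and 908 ± 20.3 TPM (SD, n = 3) under rhArg, and the libraries of the groups overlapped. As a share of all potassium channel TPM, they were at 74.4% ± 1.20 in the controls and 66.0% ± 0.534 under rhArg (SD, n = 3 each), with no overlap. The single gene KCNF1 made up 24.4% ± 1.06 of the voltage-gated TPM in the controls and 2.59% ± 0.105 under rhArg (SD, n = 3 each). Its level fell from 241 ± 34.9 to 23.5 ± 0.449 TPM, while 12 tested voltage-gated genes were higher and 6 lower. Calcium-activated genes summed to 73.8 ± 8.58 TPM in the controls and 149 ± 8.27 TPM under rhArg, and the auxiliary genes to 60.9 ± 5.91 and 94.7 ± 9.45 TPM, again with no overlap. Two-pore genes had 115 ± 4.74 and 122 ± 7.49 TPM with overlapping libraries, and inward rectifiers 89.1 ± 2.53 and 101 ± 4.43 TPM without overlap. No p-value was computed for a sum over genes.

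**Figure D2:**
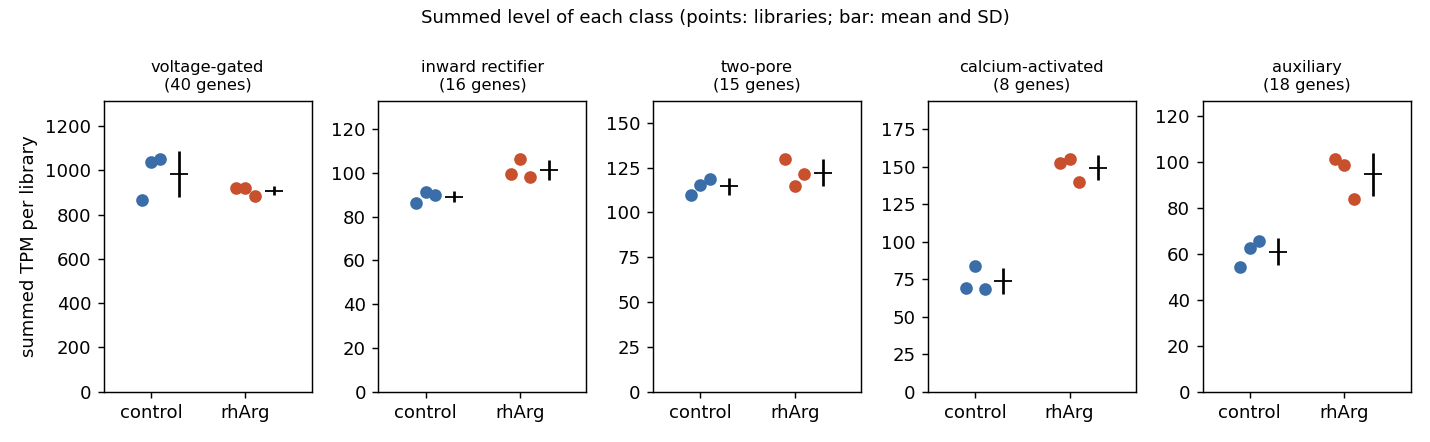
Summed TPM of each class of potassium channel genes in every library (y axis, a separate scale per panel, all starting at 0), with blue points for control and red points for rhArg libraries and a bar for the mean and SD. The calcium-activated sum lies between 68.8 and 83.7 TPM in the controls and between 139.9 and 155.4 TPM under rhArg, while the voltage-gated sums overlap.

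Within the voltage-gated class the largest fall and one of the largest increases were those of KCNF1 and KCND1. KCNF1 encodes Kv5.1, a modifier subunit that forms no channel of its own and assembles with Kv2 subunits. It lies at chr2:10911934-10914225, plus strand, of GRCh38. Normalized counts (counts scaled by the effective library size) of KCNF1 were 1383, 1887 and 1704 in the controls and 152, 149.7 and 155 under rhArg. Every rhArg library lay far below every control library, a 10.9-fold lower level, with a log2 fold change of -3.44 (SE 0.13, adjusted p = 8.72e-12) from edgeR. Counted from the lowest log2 fold change, it ranked 73 among the 15221 genes tested.

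KCND1 encodes Kv4.1, the pore of a rapidly inactivating A-type current, and lies at chrX:48961378-48971844, minus strand. Its normalized counts were 261, 349 and 337 in the controls and 1946, 1867 and 1886 under rhArg. All rhArg libraries were above all control libraries, a 6.02-fold higher level with a log2 fold change of 2.59 (SE 0.11, adjusted p = 4.58e-11) from edgeR. The other Kv4 genes, KCND2 and KCND3, had at most 1 count in any library.

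The upstream sequences of KCNF1 and KCND1 are shown because these genes moved in opposite directions by large folds, and those of KCNH4 and KCNT2, described further on, because each holds a motif that was searched. Each is the 250 bases before the gene start in RefSeq (GRCh38.p14), 5′ to 3′ on the strand of the gene, with a match in capitals. The motifs, searched on both strands, were TGACGTCA (the cAMP response element), CACGTG (an E-box) and TGATGNAA (the CCAAT-enhancer-binding protein and activating transcription factor composite element, N being any base). The windows lie at chr2:10911684-10911933, plus strand, for KCNF1, at chrX:48971845-48972094, minus strand, for KCND1, at chr17:42181143-42181392, minus strand, for KCNH4, and at chr1:196608441-196608690, minus strand, for KCNT2. The first 3 end at the base before the Ensembl gene model of the count table, whereas the KCNT2 window lies inside that model (chr1:196225779-196609225, minus strand), which starts further upstream.
KCNF1: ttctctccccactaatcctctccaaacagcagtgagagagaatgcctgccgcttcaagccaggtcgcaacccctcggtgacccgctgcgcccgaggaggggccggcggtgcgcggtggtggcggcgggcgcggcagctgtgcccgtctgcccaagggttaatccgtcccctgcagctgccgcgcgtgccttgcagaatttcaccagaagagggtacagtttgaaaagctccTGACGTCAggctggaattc
KCND1: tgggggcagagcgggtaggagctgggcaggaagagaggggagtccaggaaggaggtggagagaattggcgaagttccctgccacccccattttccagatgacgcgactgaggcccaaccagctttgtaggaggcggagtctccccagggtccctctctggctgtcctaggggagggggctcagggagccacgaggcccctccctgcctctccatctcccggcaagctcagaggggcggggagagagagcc
KCNH4: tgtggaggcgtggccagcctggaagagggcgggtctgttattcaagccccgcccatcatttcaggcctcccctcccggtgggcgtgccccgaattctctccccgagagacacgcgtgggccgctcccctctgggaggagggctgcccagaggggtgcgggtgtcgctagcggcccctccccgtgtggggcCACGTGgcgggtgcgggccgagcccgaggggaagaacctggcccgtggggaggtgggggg
KCNT2: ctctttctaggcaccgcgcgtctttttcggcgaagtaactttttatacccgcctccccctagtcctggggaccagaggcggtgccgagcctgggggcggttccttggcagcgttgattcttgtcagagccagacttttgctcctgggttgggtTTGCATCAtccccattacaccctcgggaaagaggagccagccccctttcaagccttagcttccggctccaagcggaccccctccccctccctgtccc

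KCNF1 held TGACGTCA between 19 and 12 bases before its start, and no other tested potassium channel gene with a window did. RefSeq windows were at hand for 35 of the 47 tested genes, 54 windows in all. Of 35116 windows of this length over all genes, 1.646% held TGACGTCA, 6.345% held CACGTG and 3.144% held TGATGNAA. CACGTG was found before KCNH4, between 60 and 55 bases from the start, and before KCNAB1 and KCNAB2. KCNT2 was the only one of the 35 genes with TGATGNAA, on the opposite strand between 97 and 90 bases before its start, and the KCND1 window held none of the 3. A match is a run of letters and was not tested as a binding site.

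KCNB2, which encodes the Kv2.2 channel that modifier subunits can join, overlapped between groups. Its normalized counts were 343, 352 and 404 in the controls and 429.8, 402 and 415 under rhArg, and the log2 fold change of 0.18 (SE 0.11, adjusted p = 0.161) did not pass.

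None of the other modifier subunits tested was called lower. KCNS3, which encodes Kv9.3, had normalized counts of 294, 212 and 176 in the controls and 526, 623 and 518 under rhArg. Its groups did not overlap, and the log2 fold change was 1.29 (SE 0.16, adjusted p = 3.10e-06). KCNG4, which encodes Kv6.4, was higher but just outside the fold threshold at 0.95 (SE 0.13, adjusted p = 1.47e-05). KCNG2, KCNG3 and KCNS2 did not pass, with log2 fold changes of 0.50, -0.12 and 0.40, although KCNG2 had an adjusted p of 0.0497 without control replicate 1. KCNV2 had 4, 11 and 4 counts in the controls and 10, 1 and 6 counts under rhArg and fell under the filter, and KCNS1 and KCNV1 had at most 3 counts in any library. Summed over the 10 modifier genes, the level was 296 ± 27.9 TPM (SD, n = 3) in the controls and 129 ± 7.15 TPM under rhArg. KCNF1 alone set the direction of this sum, since the other 9 genes went from 55.2 ± 7.01 to 105 ± 7.42 TPM (SD, n = 3). The libraries did not overlap for either sum.

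**Figure D3:**
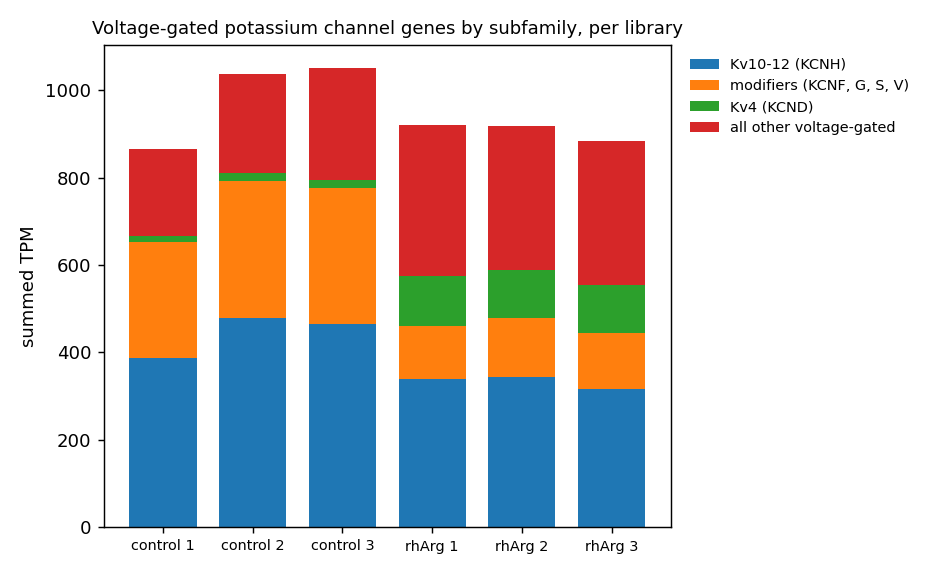
Summed TPM of the voltage-gated genes in each library (y axis), stacked by group of subfamilies, for the 3 control and the 3 rhArg libraries. The Kv4 block, which is almost all KCND1, averages 17.4 TPM in the controls and 111 TPM under rhArg, the modifier block 296 and 129 TPM, and the KCNH block lies between 387.9 and 478 TPM in the controls and between 317 and 342 TPM under rhArg.

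Shaker-type (Kv1) genes were low in Y79 cells. KCNA4, which encodes the A-type channel Kv1.4 and lies at chr11:30009730-30017030, minus strand, had raw counts of 2, 1 and 1 in the controls and 24, 26 and 27 under rhArg. The rhArg libraries were all far above the controls, and the ratio of summed counts per library total was 18.7 (95% interval 7.03 to 70.6, exact binomial, counting error only). Its fitted log2 fold change of 4.11 (SE 0.46, adjusted p = 1.30e-06) rests on 4 control counts, and it passed the filter only through the rhArg libraries. KCNA6, which encodes Kv1.6, had normalized counts of 16.9, 14.0 and 18.6 in the controls and 27.9, 34.9 and 40.5 under rhArg. These groups did not overlap, with a log2 fold change of 1.05 (SE 0.28, adjusted p = 0.00394), just inside the fold threshold. KCNA7 had 0, 1 and 5 counts in the controls and 10, 24 and 10 counts under rhArg and was not tested by the main filter, and its count ratio was 7.14 (95% interval 3.03 to 20.5). KCNA2 had at most 2 counts in a library, and KCNA1, KCNA3, KCNA5 and KCNA10 were at 0 in all libraries.

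The Kv3 genes encode fast delayed rectifiers and A-type channels of rapidly firing neurons. KCNC4, which encodes Kv3.4, had normalized counts of 212, 307 and 321 in the controls and 698, 777 and 589 under rhArg. KCNC2, which encodes Kv3.2, had 10.9, 8.62 and 5.87 in the controls and 46.9, 34.9 and 26.0 under rhArg, and passed the filter only through the latter. Neither gene overlapped between groups, and the log2 fold changes were 1.30 (SE 0.15, adjusted p = 1.54e-06) and 2.07 (SE 0.35, adjusted p = 8.52e-05). KCNC1, which encodes Kv3.1, rose by a smaller fold, with a log2 fold change of 0.48 (SE 0.10, adjusted p = 0.000457) and a level of 29.2 ± 3.20 TPM in the controls and 43.2 ± 1.57 TPM under rhArg (SD, n = 3). Control replicate 1 was the lowest of the controls for KCNC1 and KCNC4, and without it both log2 fold changes stayed past the test. KCNC2 shares 35.7% of its exon bases with other genes, and the gene with the largest overlap had 13 counts over all libraries.

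The KCNH genes, which encode the EAG, ERG and ELK channels, were the most abundant subfamily by TPM in both groups, and none of them was a DEG in the upward direction. By TPM, which depends on the annotated exon length, the ERG gene KCNH6 had the highest level of all potassium channel genes in both groups. It was at 242 ± 31.7 TPM in the controls and 219.6 ± 6.41 TPM under rhArg (SD, n = 3). Its groups overlapped, and its log2 fold change of -0.23 (SE 0.10, adjusted p = 0.071) did not pass, but without control replicate 1 it was -0.34 with an adjusted p of 0.00247. In the controls KCNF1, at 241 ± 34.9 TPM, lay within the spread of KCNH6, whereas under rhArg it was at 23.5 ± 0.449 TPM. KCNH2, which encodes the ERG channel of the cardiac repolarizing current, fell by 0.76 on the log2 scale (SE 0.11, adjusted p = 1.98e-05), from 107 ± 12.8 to 67.6 ± 4.47 TPM.

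The ELK genes KCNH3, KCNH4 and KCNH8 were split. KCNH3 had normalized counts of 633, 682 and 596 in the controls and 174, 149 and 161 under rhArg. KCNH4 had 297, 380.2 and 393 in the controls and 97.7, 122 and 111 under rhArg. Both were lower in every rhArg library than in any control, with log2 fold changes of -1.98 (SE 0.12, adjusted p = 1.02e-09) and -1.69 (SE 0.15, adjusted p = 1.00e-07). KCNH8 was higher, with a log2 fold change of 0.42 (SE 0.12, adjusted p = 0.00831), and this call was lost without rhArg replicate 2 (adjusted p = 0.0516). KCNH1, which encodes an EAG channel, passed the filter only through the controls and did not pass the test at -0.57 (SE 0.36, adjusted p = 0.186). Overlap with other genes covers 46.8% of its exon bases, and the gene with the largest overlap was at 0. KCNH5 had at most 4 counts in a library and KCNH7 was at 0 in all.

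The Kv7 genes encode the subunits of the M-current, which damps repeated firing. KCNQ5 had normalized counts of 1268, 1139 and 1374 in the controls and 652, 577 and 657 under rhArg. It was lower in all rhArg libraries, with a log2 fold change of -1.004 (SE 0.10, adjusted p = 5.12e-07), just inside the fold threshold, and a level of 37.3 ± 5.22 TPM in the controls and 19.7 ± 1.45 TPM under rhArg. KCNQ1 and KCNQ3 had at most 4 counts in any library.

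**Figure D4:**
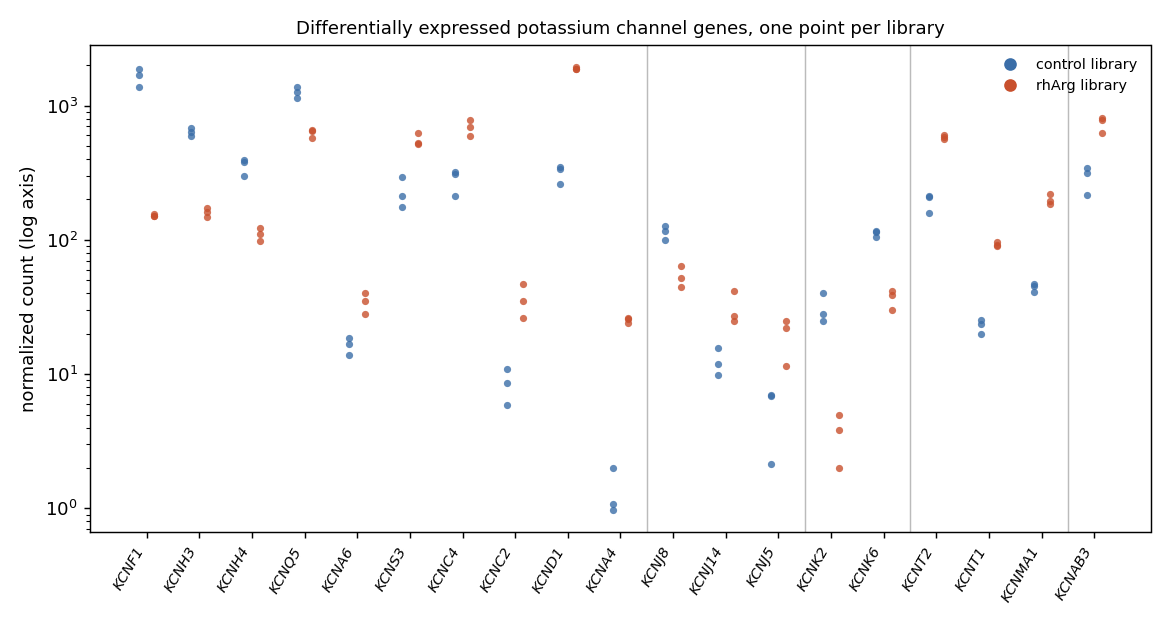
Normalized counts (y axis, log scale) of 19 DEGs among the potassium channel genes, 1 point per library, blue for control and red for rhArg, with vertical lines between the voltage-gated, inward rectifier, two-pore, calcium-activated and auxiliary genes. The points of the groups are separate for each of the 19 genes, and every library of 1 group lies below 10 normalized counts for KCNA4, KCNJ5 and KCNK2.

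The tested inward rectifier genes had a median absolute log2 fold change of 0.69, against 0.98 for the voltage-gated genes. KCNJ8 encodes Kir6.1, a pore of ATP-sensitive channels, and had normalized counts of 116, 100.2 and 127 in the controls and 51.9, 63.9 and 44.4 under rhArg. It was lower in all rhArg libraries, with a log2 fold change of -1.10 (SE 0.19, adjusted p = 0.000126), close to the fold threshold. KCNJ11, which encodes the related pore Kir6.2, overlapped between groups at 0.13 (SE 0.12, adjusted p = 0.38), with a level of 23.8 ± 1.82 TPM in the controls and 27.5 ± 3.06 TPM under rhArg. On the TPM scale KCNJ11 and KCNJ4 were the most abundant inward rectifier genes in the controls and did not differ there beyond their spread (24.1 ± 2.38 TPM for KCNJ4), and KCNJ4 was the highest under rhArg, at 40.8 ± 2.68 TPM.

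The Kir2 genes, which encode strong rectifiers that hold the resting potential, did not move together. KCNJ2 (Kir2.1) fell by 0.69 on the log2 scale (SE 0.15, adjusted p = 0.000924), whereas KCNJ4 (Kir2.3) rose, at 0.67 (SE 0.15, adjusted p = 0.000822). KCNJ14 (Kir2.4) had normalized counts of 9.93, 11.8 and 15.6 in the controls and 41.9, 24.9 and 27.0 under rhArg. No library of one group reached the other, and its log2 fold change was 1.31 (SE 0.32, adjusted p = 0.00223). Overlap with other genes covers 30.6% of the KCNJ14 exon bases, and the gene with the largest overlap was at 0 in all libraries. KCNJ12 (Kir2.2) overlapped between groups at -0.09 (SE 0.14, adjusted p = 0.587). KCNJ12 is nearly identical to KCNJ18, which had 2 counts in all, and reads that fit both genes may be missing from either count.

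KCNJ5 encodes Kir3.4, a channel opened by G proteins, and had normalized counts of 6.95, 2.15 and 6.84 in the controls and 24.9, 22.0 and 11.6 under rhArg. The lowest rhArg library lay above the highest control, with a log2 fold change of 1.82 (SE 0.45, adjusted p = 0.00224) and 16 raw counts over the 3 control libraries together. KCNJ5 and KCNJ14 passed the filter only through the rhArg libraries. The other Kir3 genes, KCNJ3, KCNJ6 and KCNJ9, had at most 2 counts in a library. KCNJ10, the main Kir channel of Mueller glia, had 0, 4 and 2 counts in the controls and 0, 0 and 1 under rhArg, and KCNJ1, KCNJ13 and KCNJ15 had at most 3. KCNJ16 was at 0 in all libraries.

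All 5 tested two-pore genes passed the test, where 61.7% of all genes did, and 3 of them were lower, but KCNK2 and KCNK9 passed the filter through 1 group only. KCNK2 encodes TREK-1, a background channel opened by stretch and lipids, at chr1:215005775-215237090, plus strand, and had raw counts of 25, 26 and 41 in the controls and 2, 5 and 4 under rhArg. Each rhArg library was below each control, and the controls had 8.59 times the counts of the rhArg libraries (95% interval 4.58 to 17.8, exact binomial, counting error only). The fitted log2 fold change was -3.06 (SE 0.40, adjusted p = 7.91e-06), and the gene passed the filter only through the controls. KCNK6, which encodes TWIK-2, had normalized counts of 104, 115 and 116 in the controls and 29.9, 38.9 and 41.5 under rhArg. Its libraries did not overlap either, with a log2 fold change of -1.60 (SE 0.19, adjusted p = 3.15e-06).

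KCNK3 and KCNK12 together made up 91.5% ± 1.08 (SD, n = 3) of two-pore TPM in the controls and 94.7% ± 1.20 under rhArg. KCNK3, which encodes the acid-sensitive channel TASK-1, had the highest two-pore level by TPM in both groups and moved little, from 74.0 ± 1.73 to 65.3 ± 6.85 TPM. Its log2 fold change was -0.27 (SE 0.10, adjusted p = 0.0257), and the call was lost without rhArg replicate 2 (adjusted p = 0.178) and without rhArg replicate 3 (adjusted p = 0.0635). KCNK12, which encodes THIK-2, rose at 0.62 (SE 0.11, adjusted p = 0.000114), from 30.9 ± 4.01 to 50.5 ± 1.85 TPM. By mean normalized counts KCNK12 lay above KCNK3 under rhArg, at 1999 against 1140, over 14022 exon bases against 6191 for KCNK3. KCNK9, which encodes the acid-sensitive channel TASK-3, had 10.9, 7.54 and 10.8 normalized counts in the controls and 14.96, 24.9 and 18.3 under rhArg, just outside the fold threshold at 0.98 (SE 0.35, adjusted p = 0.0228), and passed the filter only through the rhArg libraries. The KCNK9 call was lost with DESeq2 (adjusted p = 0.139 over all genes, 0.0837 over the filtered genes) and without rhArg replicate 2 (0.121) or control replicate 2 (0.0899). With DESeq2 on the filtered genes and without rhArg replicate 2, 1 two-pore gene was called higher.

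Of the 10 two-pore genes that were not tested, KCNK7 had the most counts, 0, 2 and 4 in the controls and 10, 11 and 8 under rhArg, a ratio of 4.71 (95% interval 1.92 to 13.9). KCNK10, which encodes the TREK-1 relative TREK-2, had 1, 1 and 0 counts in the controls and 2, 7 and 8 under rhArg. Without the filter both were called higher, with log2 fold changes of 2.15 (SE 0.65, adjusted p = 0.0039) and 2.82 (SE 0.96, adjusted p = 0.0124) in edgeR. KCNK4, KCNK5, KCNK13, KCNK15 and KCNK17 had at most 5 counts in any library, and KCNK1, KCNK16 and KCNK18 were at 0 in all.

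Calcium-activated genes and their sodium-activated relatives were the class in which no tested gene was called lower. KCNMA1 encodes the pore of the large-conductance BK channel, opened by calcium and depolarization, at chr10:76869601-77638369, minus strand, and had normalized counts of 45.7, 40.9 and 46.9 in the controls and 220.4, 184 and 196 under rhArg. Every rhArg library was well above the highest control, and the log2 fold change was 2.16 (SE 0.17, adjusted p = 2.49e-08), a 4.47-fold higher level. KCNT1, which encodes the sodium-activated channel Slack, had 19.9, 23.7 and 25.4 in the controls and 95.7, 90.8 and 89.7 under rhArg. KCNT2, which encodes its relative Slick, had 211, 157 and 209 in the controls and 559, 601 and 579 under rhArg. Neither overlapped between groups, and the log2 fold changes were 2.00 (SE 0.21, adjusted p = 6.50e-07) and 1.59 (SE 0.13, adjusted p = 2.79e-08).

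The bulk of the calcium-activated RNA was that of KCNN1, which encodes the small-conductance channel SK1. It made up 84.1% ± 3.83 (SD, n = 3) of the TPM of the class in the controls and 77.0% ± 1.05 under rhArg. KCNN1 itself rose from 62.3 ± 10.2 to 115 ± 7.55 TPM, with a log2 fold change of 0.79 (SE 0.13, adjusted p = 5.05e-05). KCNMA1, in contrast, had a level of 0.378 ± 0.0435 TPM in the controls and 1.80 ± 0.175 TPM under rhArg, so the gene with the largest fold of the class lay below KCNN1 and KCNT2 in both groups. KCNN2 (SK2) overlapped between groups at -0.36 (SE 0.33, adjusted p = 0.359). KCNN4 had at most 8 counts in any library, KCNN3 at most 2 and the sperm gene KCNU1 at most 1.

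Auxiliary genes that act on the same channels gave mixed calls. The Kv beta subunits, cytosolic proteins that bind Kv1 channels, were higher or did not pass. KCNAB3 had normalized counts of 217, 346 and 313 in the controls and 808, 779 and 622 under rhArg. All rhArg libraries were above the controls, with a log2 fold change of 1.34 (SE 0.15, adjusted p = 1.45e-06). By TPM KCNAB3 had the highest level of the class in both groups, 21.0 ± 4.66 and 56.3 ± 7.73 TPM. By mean normalized counts KCNAB2 lay above it in both, at 684 and 832 against 292 and 736, over 17212 exon bases against 4633 for KCNAB3. KCNAB2 was higher at 0.28 (SE 0.10, adjusted p = 0.019), a call lost without the filter and without control replicate 3, rhArg replicate 1 or rhArg replicate 2 (adjusted p between 0.0516 and 0.0925), and KCNAB1 did not pass at 0.61 (SE 0.37, adjusted p = 0.165). The KCNIP genes encode calcium-binding partners of Kv4 channels. KCNIP2 was lower, just outside the fold threshold, at -0.95 (SE 0.16, adjusted p = 0.000102), and shares 13.1% of its exon bases with other genes, chiefly the antisense gene KCNIP2-AS1. KCNIP3 was higher at 0.61 (SE 0.19, adjusted p = 0.0127), with an adjusted p of 0.0502 without control replicate 1. KCNIP4 did not pass at -0.21 (SE 0.23, adjusted p = 0.437), and 46.3% of its exon bases overlap PACRGL and other genes. KCNIP1 was at 0.

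None of the BK beta and MinK-related subunit genes passed the filter on low counts. KCNMB4, the neuronal BK beta subunit, had 3, 5 and 7 counts in the controls and 15, 5 and 11 under rhArg, and KCNMB3 had 13 and 18 counts in all. KCNMB3 shares 47.6% of its exon bases with PIK3CA and other genes. KCNRG, a regulator that binds Kv channels, had 12, 3 and 6 counts in the controls and 1, 3 and 2 under rhArg, and 66.8% of its exon bases lie in TRIM13 or another gene. The KCNE genes and KCNMB1 and KCNMB2 had at most 3 counts in a library, with KCNE3 and KCNE1B, a near-identical copy of KCNE1, at 0.

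Partners of these channels that carry other names were lower or did not pass. Of 6 tested partner genes (8 listed), 0 were higher and 5 were lower, where 30.9% of all genes tested were lower, and without LRRC55, which passed the filter only through the controls, 4 of 5 were lower. DPP10, which encodes an auxiliary subunit of Kv4 channels, had normalized counts of 1739.9, 1322 and 1519.6 in the controls and 552, 541 and 575 under rhArg. Its log2 fold change was -1.46 (SE 0.11, adjusted p = 1.66e-08), opposite in sign to that of KCND1, and its relative DPP6 did not pass at -0.06 (SE 0.11, adjusted p = 0.625). The genes of 3 leucine-rich gamma subunits of the BK channel were lower, opposite in sign to KCNMA1. These were LRRC38 at -0.96 (SE 0.13, adjusted p = 1.25e-05), LRRC26 at -0.72 (SE 0.18, adjusted p = 0.00218) and LRRC55 at -2.58 (SE 0.46, adjusted p = 0.000156), the last on 2.97 ± 1.75 normalized counts (SD, n = 3) under rhArg. ABCC8, which encodes the sulphonylurea receptor that assembles with Kir6.2, was lower at -0.60 (SE 0.13, adjusted p = 0.000908).

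Other genes of potassium transport moved in both directions. Among 7 tested genes of further potassium-permeable channels, 5 were higher and 1 was lower, the latter 2 without control replicate 2, against 30.7% higher and 30.9% lower over all genes tested. HCN4 and HCN2 encode hyperpolarization-activated cation channels and had log2 fold changes of 1.80 (SE 0.11, adjusted p = 1.62e-09) and 1.11 (SE 0.11, adjusted p = 3.28e-07). CNGA3, the cone cyclic nucleotide-gated subunit, had 1.07 (SE 0.10, adjusted p = 1.07e-07), and CNGB1, the rod subunit and the lower gene of this list, had -1.50 (SE 0.32, adjusted p = 0.000842). CNGB1 passed the filter only through the controls, where it had 46, 39 and 28 counts against 8, 16 and 17 under rhArg, and the 6 genes that passed it in both groups gave 5 higher and 0 lower. Of 8 tested genes of the sodium-potassium and proton-potassium pumps, 4 were higher and 2 lower, with the regulatory subunits FXYD5 at 2.05 (SE 0.11, adjusted p = 3.71e-10) and FXYD6 at 1.47 (SE 0.14, adjusted p = 2.40e-07), and the beta subunits ATP1B2 at -0.53 (SE 0.09, adjusted p = 0.000143) and ATP1B3 at -0.35 (SE 0.10, adjusted p = 0.00476). The 5 tested potassium-coupled chloride cotransporters gave 2 higher and 3 lower, with 1 higher when control replicate 3 or rhArg replicate 1 was left out. SLC12A4 had 1.10 (SE 0.09, adjusted p = 3.55e-08), SLC12A2 -0.61 (SE 0.11, adjusted p = 0.000132) and SLC12A5 -0.51 (SE 0.12, adjusted p = 0.00152). Neither of the 2 tested potassium-dependent sodium-calcium exchanger genes, SLC24A1 and SLC24A4, passed, with log2 fold changes of -0.21 and -0.06.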

How the data were processed

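Total RNA of Y79 cells was sequenced in 3 control and 3 rhArg libraries. The authors cleaned the reads with SOAPnuke and mapped them to hg38 with HISAT2 (versions not given in the sources used here), and they deposited raw counts per gene from featureCounts 2.0.1 on the Ensembl 112 annotation of GRCh38, without a strand option. Reads that overlap exons of several genes are then dropped, and reads of a gene and its antisense partner cannot be told apart. All 6 libraries were used, and 0 columns of per-sample values were left unused.

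Groups and replicate numbers came from the sample titles. Counts were fitted in R 4.3.3 with edgeR 4.0.16 (filterByExpr with a minimum count of 10, TMM factors between 0.975 and 1.02, glmQLFit, glmQLFTest, with no term but the condition), with Benjamini-Hochberg adjustment over the 15221 genes tested. The adjusted p-values in the text come from edgeR unless DESeq2 is named. The standard error is the log2 fold change divided by the square root of F. DEGs passed an adjusted p of 0.05 and an absolute log2 fold change of 1. TMM holds the median of all genes near 0 and hides any shift that all genes share. The common dispersion was 0.0110, and replicate libraries differed by more than counting noise (3.62 to 16.2 for the chi-square over its degrees of freedom). TPM was computed from the counts and exon lengths. Symbols came from a table of gene names, and 1 gene, KCNE1B, was named from GENCODE 29. Intervals of count ratios are exact at 95% and cover counting error only.

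The genes, classes and lists were chosen with earlier results of these data known. Genes named by rule were, per class, the DEGs (at most 10), the most abundant gene, genes whose reads may be shared and genes next to the fold threshold, and in each partner list up to 2 higher and 2 lower. The other potassium channel genes named, LRRC26, LRRC55, ABCC8 and the genes that did not pass were named after their values were seen. Results of 5 single genes are not reported here, although the counts and sums over classes and lists include them. Promoter windows and motifs were read from RefSeq (GRCh38.p14). The procedure was tested on simulated counts. Alternatives were DESeq2 1.42.0 over all genes or the filtered genes, upper-quartile and RLE factors, unscaled totals, dropping the filter or raising it (a mean count of 20, and 1 CPM throughout a group), glmTreat, a replicate block and each library left out.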

Additional observations from a re-analysis of the deposited data

How the results depend on the processing

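Over the alternatives run, the 47 tested potassium channel genes gave 638 fits with the direction and side of the adjusted p threshold reported. A further 12 lost the call (KCNAB2, KCNIP3, KCNK3, KCNK9 and KCNH8) and 2 gained it (KCNG2 and KCNH6 without control replicate 1). No log2 fold change turned its sign. The fold threshold was not part of this count. With 1 library left out, KCNA6 (0.92), KCNQ5 (-0.94) and KCNJ8 (-0.99) could fall short of it. KCNG4 (1.03), KCNIP2 (-1.08) and KCNK9 (1.13) could go past it. The causes were not tested. With glmTreat, which asks for a fold change past the threshold itself, 8 genes were higher and 5 lower, against 13 and 8 DEGs. Over all 15221 genes tested, 1888 (12.4%) passed glmTreat. Without a filter on low counts 4 two-pore genes were higher and 2 auxiliary genes lower (KCNK7 and KCNK10, and KCNRG, were added), and the stricter filter and DESeq2 on the filtered genes each left 1 two-pore gene higher. Leaving out 1 library at a time gave between 22 and 25 potassium channel genes higher and between 11 and 13 lower, and between 13 and 17 DEGs higher and between 7 and 9 lower. By class, the voltage-gated genes gave 11 to 13 higher and 6 to 7 lower, the inward rectifiers 3 and 2 each time, the two-pore genes 1 to 3 higher (1 without rhArg replicate 2) and 2 to 3 lower, the calcium-activated genes 4 and 0 each time, and the auxiliary genes 2 to 3 higher and 1 lower. Further potassium-permeable channels gave 1 to 2 lower (2 without control replicate 2), and chloride cotransporters 1 to 2 higher (1 without control replicate 3 or rhArg replicate 1). Same-numbered control and rhArg libraries did not deviate together (correlations of -0.08, 0.06 and 0.004), so no shared replicate effect was visible. With 3 libraries per group this cannot show whether same-numbered libraries were prepared together, and the sample titles do not say. A fit with the replicate number as a block gave 24 genes higher and 12 lower, with 13 and 8 DEGs. The filter on low counts left 50 of the 97 genes untested, with at most 24 counts in any library. When it was dropped edgeR called 5 of these, while 61.7% of all genes tested passed in the main fit.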

Other observations

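Several potassium channel genes left out by the filter on low counts had unequal counts in the groups. Over all genes tested 61.7% passed in the main fit, and the share over all genes without the filter is not given here. Of the 50 potassium channel genes left untested, edgeR called 5 without the filter. Beside KCNK7 and KCNK10, these were KCNA7 with a log2 fold change of 2.75 (SE 0.57, adjusted p = 1.09e-05), KCNN4, the intermediate-conductance calcium-activated channel, with 2.55 (SE 1.02, adjusted p = 0.0398), and KCNRG with -1.79 (SE 0.71, adjusted p = 0.0377). KCNMB4, with 15 counts in the controls and 31 under rhArg, had a ratio of 2.01 (95% interval 1.05 to 4.01, counting error only) and KCNV2, with 19 and 17 counts, a ratio of 0.871 (95% interval 0.426 to 1.77). KCNRG, with 21 and 6 counts, had 3.59 times as many in the controls (95% interval 1.40 to 10.9).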
